A study of Mus musculus with 4 samples.

Results

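The genes that copy DNA were followed in 4 RNA libraries of iMOP, a wild-type immortalized mouse cell line derived from otic progenitors. The set held 47 genes of 49997 gene rows, picked by name from the machinery of DNA replication: 5 genes of origin licensing, 6 of the MCM helicase ring, 8 of helicase activation, 8 of the polymerases and primase, 5 of the sliding clamp and its loader, 4 of the fork, flap and ligase steps, 4 of nucleotide supply, 3 of histone supply and 4 E2F transcription factors. All 47 had counts. The libraries labelled proliferating came from cells in DMEM/F12 with N21 supplement, carbenicillin and 20 ng/ml bFGF, a growth factor. Those labelled neuron came from cells given as iMOP-derived neurons, in Neurobasal with N21, L-glutamine and 1 µM K03861. K03861 inhibits CDK2, a kinase that drives S phase. Each group had 2 libraries, numbered 1 and 2, with no statement in the labels that these were separate cultures, so the p-values measure only the spread between these samples, which may be technical. All libraries come from 1 cell line.

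Replication begins when the origin recognition complex, with CDC6 and CDT1, loads rings of MCM2 to MCM7 onto DNA. The kinase DDK (CDC7 with DBF4) and CDK2 then help turn each ring into a moving helicase together with CDC45 and GINS, and polymerase alpha with primase lays the primers that polymerases delta and epsilon extend. Many genes of this machinery are transcribed under E2F factors as cells enter S phase, and most are switched off in cells that leave the cycle to become neurons. The comparison between the groups therefore asks how these genes stand in libraries labelled as proliferating progenitors and in those labelled as neurons made from them.

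Total counts ran from 3150354 to 32913243 per library, of which ribosomal RNA and rRNA-like genes took between 88.2% and 98.1%. Without those, 292302 and 614465 counts remained in the proliferating-labelled libraries 1 and 2, and 3241915 and 617872 in the neuron-labelled libraries 1 and 2. Libraries were more alike by number than by label. The correlation of log2 CPM (counts scaled to a common library total, across genes) was 0.78 between the libraries numbered 1 and 0.82 between those numbered 2, against 0.40 within the proliferating label and 0.50 within the neuron label. Several markers of dividing cells and of neurons went against the labels. The summed level of 10 markers of G2 phase and mitosis was 273 and 625 CPM under the proliferating label. Under the neuron label it was 1953 and 4355 CPM. For 7 of the 10 both neuron-labelled libraries were higher, as they were for 10.8% of the 10077 genes with at least 52 summed counts. All 10 were tested. In edgeR with the replicate number, 4 were called higher (Mki67, Top2a, Bub1 and Cenpf) and 0 lower, against 0.644% and 0.322% of all tested genes. The summed level of 12 neuronal markers was 2495 and 2868 CPM under the proliferating label and 1473 and 1523 CPM under the neuron label. Of the 12, Map2, Stmn2 and Elavl3 were lower in both neuron-labelled libraries (7.9% of the 10077 genes were), and the other 9 overlapped. Of 7 tested only Stmn2 was called (lower, edgeR with the replicate number). Markers of the oligodendrocyte lineage summed to 498 and 460 CPM under the proliferating label and 149 and 80.8 CPM under the neuron label. Of 3 tested, Olig1 and Olig2 were called lower in the same fit. The 5 astrocyte markers had no common direction, with sums of 517 and 106 CPM against 226 and 516 CPM. Of 3 tested, only Aqp4 was called (higher, same fit), at 52.1 and 5.50 CPM against 73.7 and 336 CPM. Of the 5, 2 were higher in both neuron-labelled libraries, 1 was lower and 2, among them Gfap, overlapped. The part of these cell types in the results on replication genes was not tested. Of 9 otic markers, Neurog1, Isl1 and Pax8 had 0 counts in every library. The groups are therefore named below by their labels, and directions are between libraries so labelled.

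Most of the 47 genes had higher levels under the neuron label, but Pola1 alone passed edgeR's test, and only with the library number as a term in the fit. Summed over the 47 genes, the level was 1028 and 2017 CPM in proliferating-labelled libraries 1 and 2, and 3772 and 3449 CPM in neuron-labelled libraries 1 and 2. Both neuron-labelled sums lay above both proliferating-labelled sums. The same held for the division markers, whose part in this difference was not tested, and in bulk RNA fewer cells with a transcript and less transcript per cell cannot be told apart.

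The depth behind these levels was low. In proliferating-labelled library 1 the 47 genes shared 316 counts, 36 of them had under 10 counts and 2, Cdc6 and Rfc4, had 0. Proliferating-labelled library 2 held 1100 counts with 19 genes under 10, neuron-labelled library 2 held 1664 counts with 15 genes under 10, and neuron-labelled library 1 held 14173 counts with 0 genes under 10. A count of 0 in proliferating-labelled library 1 allows, at 3 counts, up to 9.76 CPM.

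For 25 of the 47 genes both neuron-labelled libraries lay above both proliferating-labelled libraries, where 10.8% of the 10077 genes with at least 52 summed counts (the lowest total of any of the 47) did so. The opposite order was found for 0 of the 47 and for 7.9% of those genes. Margins differed among the 25. The highest proliferating-labelled and lowest neuron-labelled levels were 22.0 and 22.8 CPM for Cdc45, and 34.8 and 109 CPM for Pola1.

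**Figure D1:**
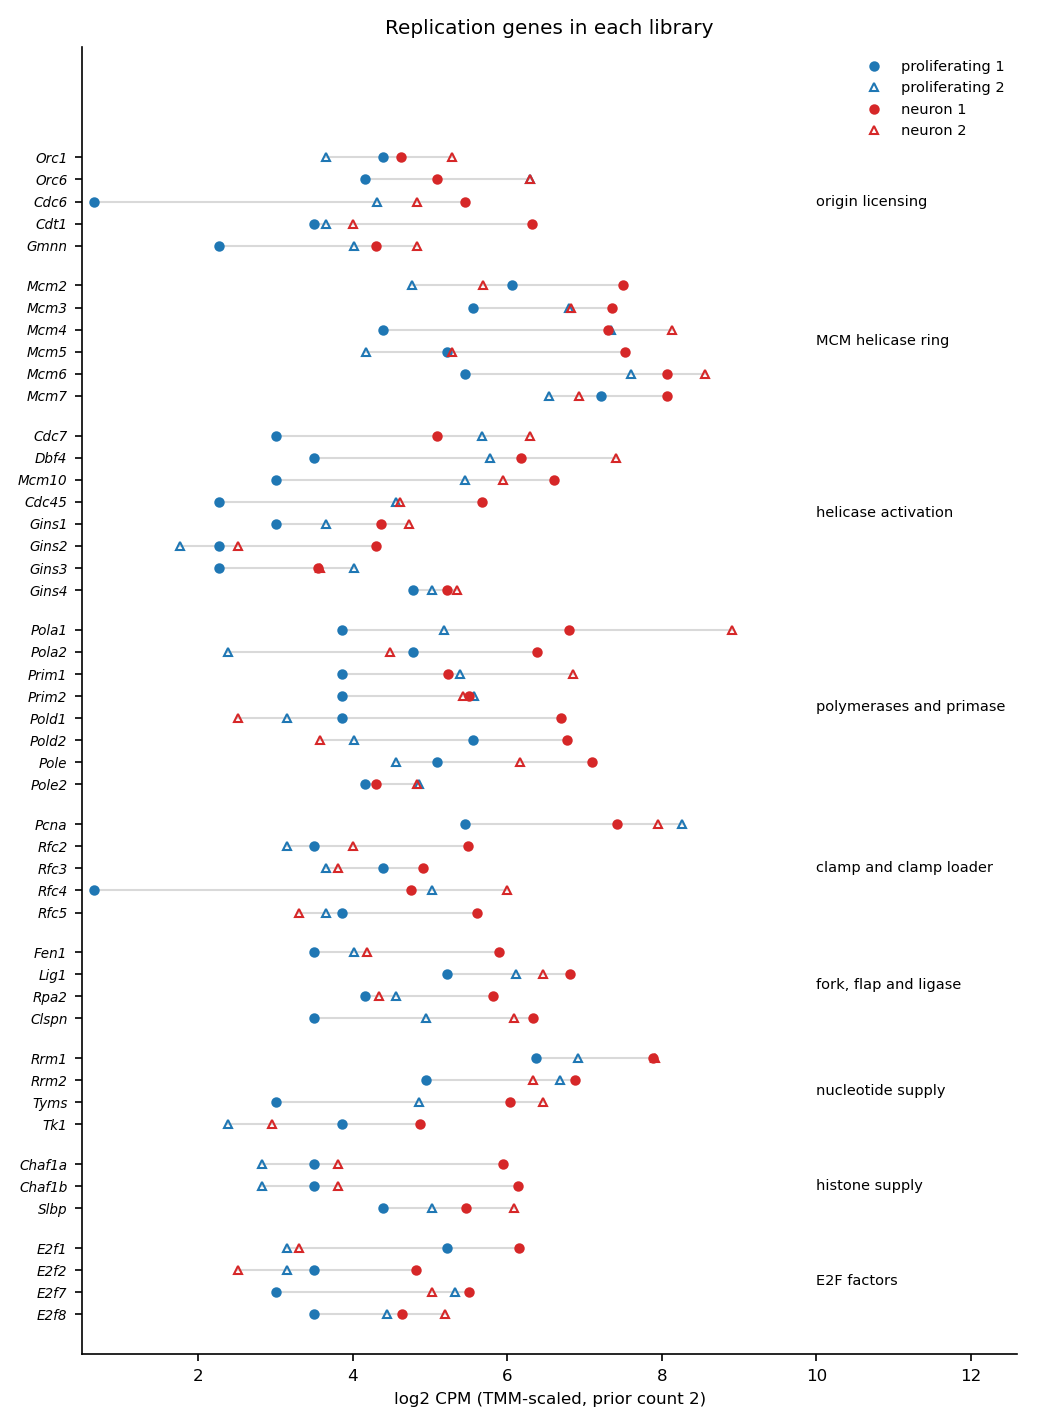
Level of each of the 47 replication genes in each library, as log2 CPM with TMM scaling (horizontal axis), grouped by role. Blue marks the libraries labelled proliferating and red those labelled neuron, with circles for number 1 and triangles for number 2. For 25 genes both red symbols lie to the right of both blue ones, and for no gene do both lie to the left.

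A filter on low counts left 36 of the 47 genes to be tested, among 9009 genes in all. In edgeR's quasi-likelihood test on group alone, 0 of the 36 tested replication genes and 0% of the 9009 genes passed an adjusted p of 0.05 in either direction. At an unadjusted p under 0.05 the same fit held 97 genes (1.08%), among them 1 of the 36, Pola1, and the other tools gave 0 calls on group alone as well. All 36 had a log2 fold change above 0, with a median of 1.16, beside 48.5% and a median of -0.03 over the genes tested. The filter can pass a gene through the label where it is high, so this count is only a description. Without the filter all 47 had a log2 fold change above 0, with a median of 1.31, and 42 of 47 lay above the median of all genes, which was 0.47 in that fit. With the replicate number as a term, which leaves 1 residual degree of freedom in place of 2, edgeR called 58 genes higher (0.644%) and 29 lower (0.322%) under the neuron label. Of the 36, 1 was higher (Pola1) and 0 were lower, and 14 had an unadjusted p under 0.05, beside 894 of all genes (9.92%). Their median log2 fold change in that fit was 1.22. On log2(RPKM + 0.1) and log2(RPKM + 1), limma with the replicate number called 18 and 24 of the 36 higher. Of all genes, 7.39% and 11.3% were called higher there. These RPKM values are scaled by totals that include ribosomal RNA and are not centred between the labels. Of 675 and 1030 genes called on them in either direction, 666 and 1018 were higher under the neuron label. With the GC correction edgeR called 0 of the 36. Without proliferating-labelled library 1, the shallowest, 40 of 46 tested replication genes were above 0 on group alone. Their median was 1.00 against 0.39 over all genes. With 1 library left in a label, the filter let in more genes that are high in neuron-labelled library 1. All genes so added to the 36 were above 0, and the 6 below 0 were among the 36, so this count too is only a description. Without neuron-labelled library 1, 31 of 36 were above 0, with a median of 0.95 against -0.21.

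**Figure D2:**
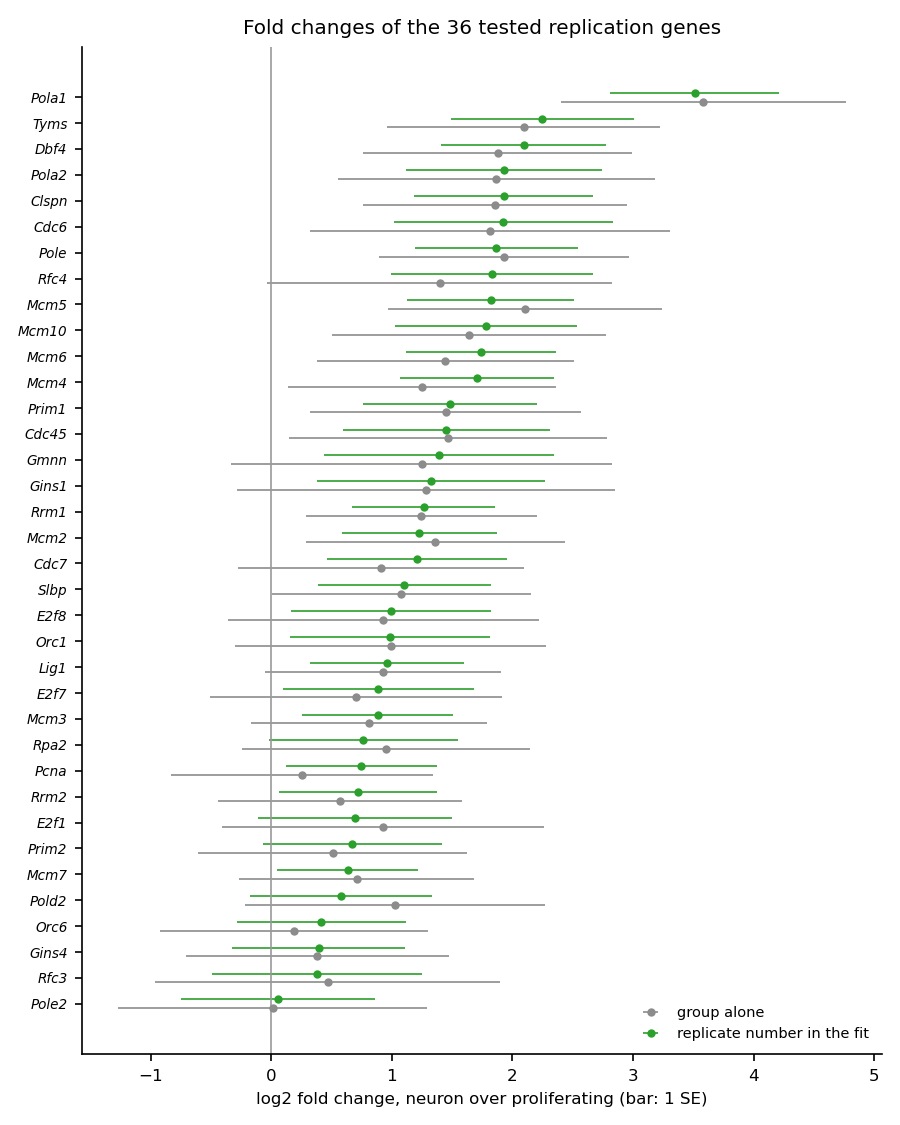
Log2 fold change, neuron over proliferating label, of the 36 replication genes that passed the count filter (horizontal axis), from edgeR on group alone (grey) and with the replicate number in the fit (green). Bars are 1 standard error. Every point lies above 0, from Pole2 near 0 to Pola1 above 3.5.

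Within each number, 1 library of each label can be set side by side, with no test. Ratios are differences of log2 CPM, neuron minus proliferating label, with the median of all tested genes set to 0. Between the libraries numbered 1, all 47 genes were higher under the neuron label (52.3% of the 10077 genes with at least 52 summed counts were), with a median of 1.89. Between those numbered 2, 36 of 47 were higher (51.3% of the genes), with a median of 0.60. A ratio above 2-fold was found for 39 genes in number 1, against 15.9% of all genes, and for 14 genes in number 2, against 22.4%. In number 2 that count is close to the background share.

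Both numbers had 36 genes higher in common (29.3% of all genes) and 0 lower in common (25.6%), and the remaining 11 were higher in number 1 and lower in number 2. Those 11 were Gins3, Prim2, Pold1, Pold2, Pole2, Pcna, Rfc5, Rpa2, Rrm2, E2f2 and E2f7. Their ratios in number 2 ran from -0.61 to just under 0, and 0 of the 47 had a 95% exact binomial interval wholly below 0 there (18.2% of all genes). The interval lay wholly above 0 for 34 genes in number 1 (15.8% of all genes) and for 13 in number 2 (23.1%). These intervals, like the limit for a count of 0, cover counting error only. Across the 47 genes the ratio in number 1 and the ratio in number 2 had a Spearman correlation of 0.22, against 0.19 over all tested genes. These are descriptions across genes, which are not independent replicates.

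**Figure D3:**
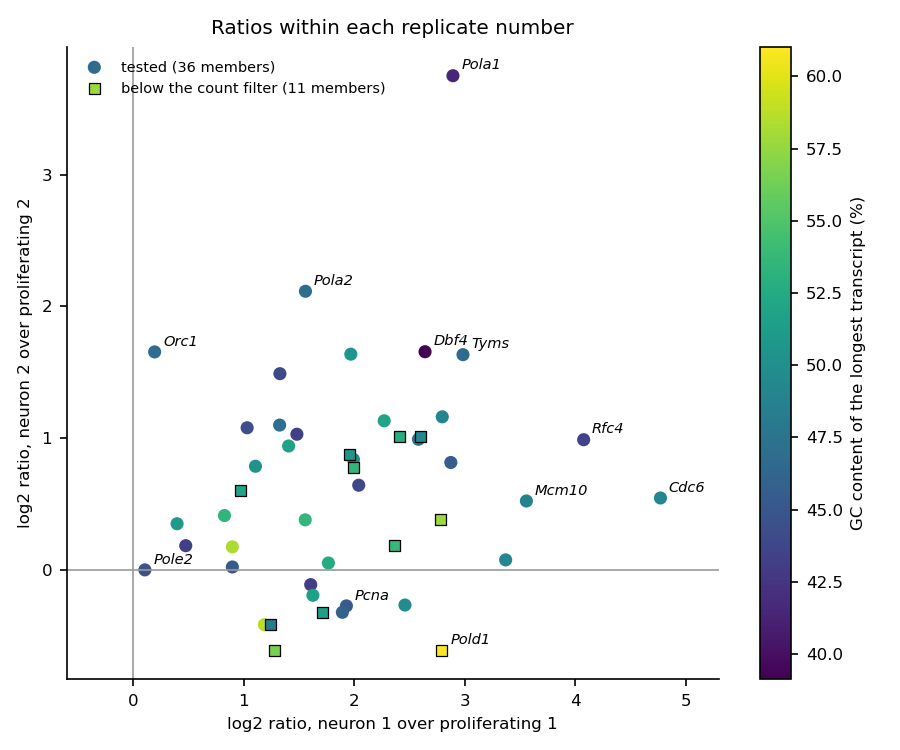
Log2 ratio of neuron-labelled over proliferating-labelled library within number 1 (horizontal axis) and within number 2 (vertical axis) for the 47 replication genes, with the median of the genes tested at 0. All points lie right of 0 and 36 lie above 0, with Pola1 highest at 3.75 in number 2. Squares mark the 11 genes under the count filter, and the colour of a point gives the GC content of its longest transcript in percent.

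Since E2F factors control many of these genes, E2F-type words were looked for in their promoters. In RefSeq promoters of build GRCm38.p6, running from 250 bases before to 50 after the start, the words TTTCCCGC, TTTCGCGC, TTTGCCGC and TTTGGCGC were searched on both strands, with overlapping matches counted. Of the 47 genes, 39 had a promoter entry, and 16 of these (41.0%) held a match, where 2.61% of 27025 genes and 2.26% of 32851 promoters did. The 16 were Orc1, Cdc6, Cdt1, Mcm3, Mcm5, Mcm6, Mcm7, Gins3, Pola1, Pold1, Pole2, Rfc3, Lig1, Clspn, E2f2 and E2f7. The word CCAAT was found for 24 of the 39 (61.5%), against 41.1% of all genes. A match is a description of letters and not a binding site. The 200 bases before the start are shown for the 1 gene called (Pola1), for an MCM gene whose ratio in number 2 was above 2-fold (Mcm5), for the MCM gene with the highest mean level (Mcm6) and for a gene with no such word (Pcna). They lie at chrX:93632156-93632355, chr8:75109309-75109508, chr1:128359706-128359905 and chr2:132253181-132253380, with Mcm5 on the plus strand and the others on the minus strand. Each is written 5′ to 3′ on the gene's own strand with the matched letters in capitals, and TTTGGCGC on the other strand reads as GCGCCAAA.
Pola1: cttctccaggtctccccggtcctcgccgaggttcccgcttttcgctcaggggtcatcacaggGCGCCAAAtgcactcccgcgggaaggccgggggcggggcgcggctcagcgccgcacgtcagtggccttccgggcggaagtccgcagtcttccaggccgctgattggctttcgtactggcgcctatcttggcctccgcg
Mcm5: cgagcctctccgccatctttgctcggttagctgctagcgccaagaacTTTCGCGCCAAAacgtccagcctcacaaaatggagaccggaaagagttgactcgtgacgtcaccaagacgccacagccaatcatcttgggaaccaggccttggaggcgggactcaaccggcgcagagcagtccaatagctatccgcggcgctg
Mcm6: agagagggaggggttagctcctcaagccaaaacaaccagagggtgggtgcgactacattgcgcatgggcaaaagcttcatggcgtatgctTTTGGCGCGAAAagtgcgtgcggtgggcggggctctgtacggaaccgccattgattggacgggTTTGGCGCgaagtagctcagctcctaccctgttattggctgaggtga
Pcna: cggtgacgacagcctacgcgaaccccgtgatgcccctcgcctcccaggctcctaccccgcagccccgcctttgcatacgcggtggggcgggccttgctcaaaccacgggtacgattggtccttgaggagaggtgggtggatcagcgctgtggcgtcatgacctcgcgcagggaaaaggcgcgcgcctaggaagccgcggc
Counting back from the start, the match in Pola1 covers bases -138 to -131. In Mcm5, 2 matches overlap between -153 and -142. Mcm6 holds 3 matches, of which 2 overlap between -110 and -99 and the third covers -47 to -40.

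Pola1 stood apart from the other polymerase genes. It encodes the catalytic subunit of polymerase alpha, which extends the RNA primer at the start of every new strand, and lies at chrX:93304767-93632155. It had 4 and 19 counts in proliferating-labelled libraries 1 and 2 and 411 and 232 in neuron-labelled libraries 1 and 2, or 13.0, 34.8, 109 and 481 CPM. Both neuron-labelled libraries lay well above both others. The log2 fold change was 3.58 (SE 1.18, adjusted p = 1.00 in edgeR on group alone) and 3.51 (SE 0.70, adjusted p = 0.00134 in edgeR with the replicate number). On group alone it was 2.14 without neuron-labelled library 2, 4.52 without proliferating-labelled library 2, 4.25 without neuron-labelled library 1 and 3.07 without proliferating-labelled library 1. The ratio was 2.89 within number 1 (95% interval 1.67 to 4.92) and 3.75 within number 2 (3.14 to 4.57). After a correction for GC content the log2 fold change was 2.86 and the call was lost (adjusted p = 0.0579, edgeR with the replicate number). In that fit the number of genes called fell to 16.

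Partners of Pola1 in the same complex were also higher in both numbers, Prim2 excepted. Pola2, the regulatory subunit, had 8 and 2 counts under the proliferating label and 307 and 10 under the neuron label, with ratios of 1.56 and 2.12. Prim1, the catalytic subunit of primase, had 4, 22, 135 and 55 counts in the same order of libraries, with ratios of 1.33 and 1.49. Libraries of the 2 labels overlapped for both genes. Prim2, the large primase subunit, had 4, 25, 165 and 20 counts, and its ratio was 1.61 in number 1 and -0.11 in number 2.

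The replicative polymerases differed among their subunits. Pole, the catalytic subunit of leading-strand polymerase epsilon, had 10, 12, 508 and 34 counts in proliferating-labelled libraries 1 and 2 and neuron-labelled libraries 1 and 2, with ratios of 1.97 and 1.64 and no overlap between labels. Pole2, its second subunit, had 5, 15, 68 and 13 counts, and its log2 fold change was 0.01 (SE 1.28) on group alone and 0.06 (SE 0.80) with the replicate number. Pole2 had the smallest difference of the 36 tested genes, and its direction turned under other settings. For lagging-strand polymerase delta, Pold1 (catalytic) had 4, 4, 383 and 2 counts and Pold2 (accessory) had 14, 8, 407 and 5. Both were higher under the neuron label in number 1, at ratios of 2.79 and 1.19, and had ratios of -0.61 and -0.42 in number 2, where the counts were single digits. Without neuron-labelled library 1 the log2 fold change of Pold2 on group alone went from 1.03 to -1.57.

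All 6 MCM genes, which encode the subunits of the replicative helicase, were higher under the neuron label in both numbers. Their summed level was 355 and 598 CPM under the proliferating label and 1216 and 976 CPM under the neuron label. The median ratio was 2.02 in number 1 and 0.88 in number 2. Mcm6 had the highest mean level of the 6 and 13, 105, 1004 and 182 counts in proliferating-labelled libraries 1 and 2 and neuron-labelled libraries 1 and 2, or 42.3, 193, 267 and 377 CPM. Its libraries did not overlap, and the log2 fold change was 1.44 (SE 1.07) on group alone and 1.74 (SE 0.62, adjusted p = 0.197, edgeR) with the replicate number.

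Over all 4 libraries Mcm5 had the largest fold change of the MCM genes on group alone and Mcm7 the smallest. Mcm5 had 11, 9, 688 and 18 counts, or 35.8, 16.5, 183 and 37.3 CPM, with a log2 fold change of 2.11 (SE 1.14) on group alone. Without neuron-labelled library 1 it was 0.46, below Mcm6 at 1.64. Its neuron-labelled library 2 stood only just above proliferating-labelled library 1. Mcm7 had 45, 50, 1004 and 58 counts, or 146, 91.7, 267 and 120 CPM, and its libraries overlapped, with a log2 fold change of 0.71 (SE 0.97). Mcm2, Mcm3 and Mcm4 had ratios of 1.41, 1.77 and 2.88 in number 1 and of 0.94, 0.05 and 0.81 in number 2, and of these only Mcm3 had libraries that did not overlap, by a margin of 110 against 112 CPM.

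The licensing factors that load the MCM ring were higher in both numbers for 5 of 5 genes. Their summed level was 48.8 and 132 CPM under the proliferating label and 194 and 182 CPM under the neuron label. Cdc6, the loader that joins the origin complex, had 0 and 10 counts under the proliferating label and 159 and 13 under the neuron label. In number 1 the 95% interval of its log2 ratio began at 1.77 and had no upper end, and in number 2 the ratio was 0.54 (-0.72 to 1.93), an interval that holds 0. Cdt1, the partner of Cdc6 in loading, had 3, 6, 294 and 7 counts, and its inhibitor Gmnn (geminin) had 1, 8, 68 and 13.

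Both subunits of the origin complex in the set were also higher in each number, Orc6 barely so. Orc1, the largest subunit, had 6, 6, 87 and 18 counts and ratios of 0.20 and 1.65. Orc6, the smallest subunit, had 5, 42, 122 and 37 counts, with ratios of 0.90 and 0.02. Both libraries numbered 2 lay above both libraries numbered 1. Its log2 fold change was 0.19 (SE 1.11) on group alone.

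Genes that fire the loaded helicase were higher in both numbers for 7 of 8. The sums were 65.1 and 226 CPM under the proliferating label and 332 and 406 CPM under the neuron label. Dbf4, the activating subunit of DDK, had 3, 29, 266 and 81 counts, or 9.76, 53.2, 70.8 and 168 CPM, with no overlap between labels. Its log2 fold change was 1.88 (SE 1.12) on group alone and 2.09 (SE 0.68, adjusted p = 0.125, edgeR) with the replicate number, the lowest adjusted p of the set after Pola1. Cdc7, the kinase itself, had 2, 27, 122 and 37 counts with ratios of 2.04 and 0.64 and libraries that overlapped.

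Mcm10, which helps switch the helicase on, had 2, 23, 360 and 29 counts, and Cdc45, a subunit of the moving helicase, had 1, 12, 186 and 11. Both were far higher under the neuron label in number 1, at 3.56 and 3.37, and differed little in number 2, at 0.52 and 0.07, with intervals that hold 0. Of the 4 GINS subunits, Gins1, Gins2 and Gins4 were higher in both numbers and Gins3, with 1, 8, 38 and 5 counts, was lower in number 2. Gins4 had 8, 17, 134 and 19 counts. On group alone its log2 fold change was 0.38 (SE 1.09).

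The clamp and its loader were the group in which library 2 of the proliferating label stood highest, with sums of 84.6 and 365 CPM under that label and 314 and 344 CPM under the neuron label. Pcna, the sliding clamp, made most of this, with 13, 166, 637 and 119 counts, or 42.3, 304, 170 and 247 CPM. It was lowest and highest in the 2 proliferating-labelled libraries, and the ratio was 1.93 (1.19 to 2.89) in number 1 and -0.28 (-0.63 to 0.07) in number 2. Per kilobase of gene length, Pcna was the highest of the 47 genes in proliferating-labelled library 2 (214 RPKM of non-ribosomal counts) and in neuron-labelled libraries 1 and 2 (156 and 153), while Mcm7 (48.6) stood above Pcna (35.3) in proliferating-labelled library 1. A processed copy, Pcna-ps2, had 2, 19, 112 and 21 counts, so the division of reads between them is uncertain.

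Rfc4, a subunit of the clamp loader, had 0, 17, 96 and 30 counts, and its ratio was 0.99 (0.12 to 1.97) in number 2. In number 1 the interval began at 1.03 and had no upper end. Rfc2, Rfc3 and Rfc5, its partners in the loader, had 3 to 6 counts under the proliferating label and 163, 107 and 178 in neuron-labelled library 1, but only 7, 6 and 4 in neuron-labelled library 2. Of the 5 genes, 3 were higher in both numbers.

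At the fork, 3 of 4 genes were higher in both numbers. Clspn (claspin, a mediator of the fork checkpoint) had 3, 16, 297 and 32 counts, or 9.76, 29.3, 79.0 and 66.3 CPM, with no overlap and a log2 fold change of 1.86 (SE 1.09) on group alone and 1.93 (SE 0.74, adjusted p = 0.265, edgeR) with the replicate number. Lig1, the ligase that joins Okazaki fragments, had 11, 37, 417 and 42 counts, or 35.8, 67.9, 111 and 87.1 CPM. Its libraries did not overlap either, at a smaller log2 fold change of 0.93 (SE 0.98). Fen1, the flap nuclease, had 3, 8, 218 and 8 counts and Rpa2, a subunit of the protein that coats single-stranded DNA, had 5, 12, 206 and 9, with ratios in number 2 of 0.19 and -0.20.

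Nucleotide supply genes summed to 130 and 251 CPM under the proliferating label and 443 and 412 CPM under the neuron label. Rrm1, the large subunit of ribonucleotide reductase, had 25, 65, 885 and 116 counts, or 81.3, 119, 236 and 240 CPM. The neuron-labelled libraries lay close together and above both others, with a log2 fold change of 1.24 (SE 0.96) on group alone and intervals above 0 in both numbers. Its partner Rrm2, the small subunit, had 9, 55, 435 and 38 counts, or 29.3, 101, 116 and 78.8 CPM, and the labels overlapped. The ratio of Rrm2 was 1.89 in number 1 and -0.32 (-0.97 to 0.29) in number 2.

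Tyms, which makes thymidylate, had 2, 15, 240 and 42 counts, or 6.51, 27.5, 63.9 and 87.1 CPM. Labels did not overlap, and the log2 fold change was 2.09 (SE 1.13) on group alone and 2.25 (SE 0.76, adjusted p = 0.143, edgeR) with the replicate number. Tk1, the salvage thymidine kinase, had 4, 2, 104 and 3 counts and did not pass the count filter.

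Histone supply genes were higher in both numbers for 3 of 3. Slbp, which binds the stem-loop of histone mRNA, had 6, 17, 160 and 32 counts, or 19.5, 31.2, 42.6 and 66.3 CPM, and a log2 fold change of 1.08 (SE 1.07) on group alone. Chaf1a and Chaf1b, subunits of the chromatin assembly factor that places histones behind the fork, each had 3 and 3 counts under the proliferating label, and 226 and 6, and 259 and 6, under the neuron label. In number 2 both had a ratio of 1.01 with an interval of -1.02 to 3.83, which holds 0.

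E2F factors had the lowest median ratio of these groups in number 2, -0.05, with 2 of 4 genes higher in both numbers and sums of 61.8 and 73.4 CPM under the proliferating label and 164 and 78.8 CPM under the neuron label. E2f1, an activator, had 11, 4, 262 and 4 counts, and its log2 fold change on group alone went from 0.93 to -1.39 without neuron-labelled library 1. E2f2, another activator, had 3, 4, 100 and 2 counts. The repressors E2f7 and E2f8 had 2, 21, 165 and 15 counts and 3, 11, 88 and 17 counts. E2f8 alone of the 4 had libraries that did not overlap, with a log2 fold change of 0.93 (SE 1.29).

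**Figure D4:**
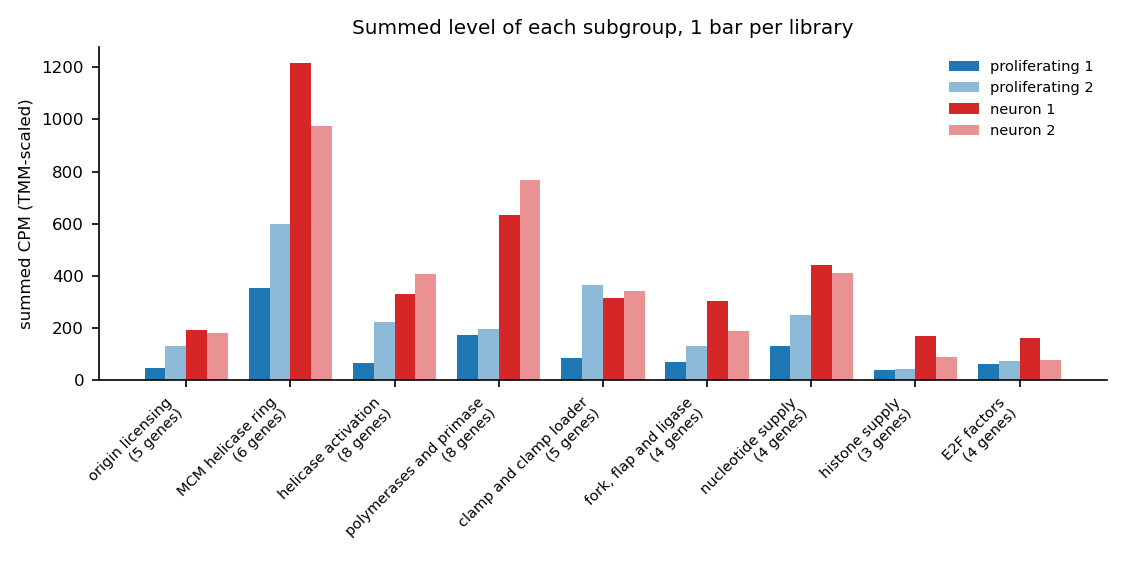
Summed CPM of each group of replication genes in each library (vertical axis). In each group the neuron-labelled libraries lie above both proliferating-labelled libraries except for the clamp and clamp loader, where proliferating-labelled library 2 is highest at 365 CPM.

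The filter on low counts left out 11 of the 47 genes: Cdt1, Gins2, Gins3, Pold1, Rfc2, Rfc5, Fen1, Tk1, Chaf1a, Chaf1b and E2f2. Their transcripts had a GC content at or above the median of the 47 in 10 of 11 cases.

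GC content separated the libraries by number. Across the 47 genes GC ran from 39.1% to 61.0% (longest transcript), with a median of 49.3%. The mean log2 CPM of libraries numbered 2 minus that of libraries numbered 1 had a Spearman correlation with GC of -0.72 over the 47 genes and -0.78 over 8671 tested genes. Genes low in GC, such as Dbf4 at 39.1% and Pola1 at 41.5%, were higher in the libraries numbered 2, and genes high in GC, such as Pold1 at 61.0%, were higher in those numbered 1.

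The ratio between labels followed GC less closely, with a Spearman correlation of -0.06 in number 1 and -0.35 in number 2 over the 47 genes, against -0.30 and -0.43 over the tested genes. The 23 genes of lower GC had a median ratio of 1.89 in number 1 and 0.99 in number 2, and 10 of them were above 2-fold in number 2. The 24 others had medians of 1.86 and 0.38, with 4 above 2-fold in number 2. The part of GC in the ratios was not tested beyond the corrected fit, in which the median log2 fold change of the 36 tested genes was 1.20, 34 of them above 0.

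**Figure D5:**
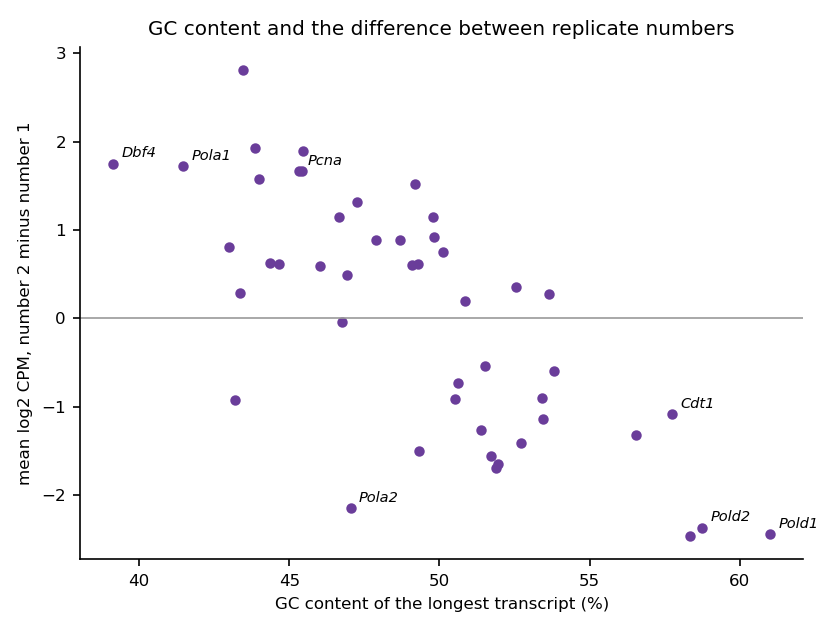
GC content of the longest transcript in percent (horizontal axis) against the mean log2 CPM of the libraries numbered 2 minus that of the libraries numbered 1 (vertical axis) for the 47 replication genes. Most genes of low GC lie above 0 and most of high GC below it, with Dbf4 and Pold1 at the 2 ends of the GC range.

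Of 68 other replication genes, 63 were tested, and with the replicate number edgeR called 2 higher and 0 lower under the neuron label, against 0.644% and 0.322% of all genes. Pclaf, a PCNA-binding factor, had 1, 17, 315 and 57 counts, or 3.25, 31.2, 83.8 and 118 CPM, with no overlap and a log2 fold change of 2.73 (SE 0.75, adjusted p = 0.0410, edgeR with the replicate number). Hells, a chromatin remodeller, had 3, 62, 331 and 271 counts, or 9.76, 114, 88.1 and 562 CPM, with overlapping labels and a log2 fold change of 2.60 (SE 0.66, adjusted p = 0.0232, edgeR with the replicate number). Both calls were lost with the GC correction (2.22, adjusted p = 0.295, and 1.60, adjusted p = 0.457, in edgeR), and on group alone edgeR called 0 of the 63. Leaving out 1 library gave Hells 0.45 (without neuron-labelled library 2) to 5.07 (without proliferating-labelled library 2) on group alone, and Pclaf 1.70 to 4.95 (without proliferating-labelled libraries 1 and 2 in turn).

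Those 63 genes had a median log2 fold change of 0.70 on group alone, 48 of them above 0, and 38 were higher in both numbers (27.4% of tested genes). The 6 other helicase activation genes were all higher in both. The 9 other E2F factors, dimer partners and pocket proteins had a median of -0.03, and ran up to Rbl1, a pocket protein, at 2.39. Rb1, the pocket protein that restrains E2F, had 68.3 and 69.7 CPM under the proliferating label and 29.8 and 93.3 CPM under the neuron label, and Tfdp1, the dimer partner of E2F, had 143, 244, 186 and 164 CPM in the usual order of libraries. Cdk2, the target of the inhibitor in the neuron medium, had 32.5 and 3.67 CPM under the proliferating label and 35.1 and 10.4 CPM under the neuron label, ordered by number rather than by label.

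Of 7937 genes outside the set whose log2 CPM averaged 4 or more, the 5 whose profile over the 4 libraries lay nearest to the mean profile of the 36 tested genes were Tmod2, Ppih, Nsl1, Thyn1 and Acsl1. Their root mean square distance was 0.07 (Tmod2) to 0.15 (Acsl1) on the log2 scale. Tmod2, the nearest, had 58.6 and 108 CPM under the proliferating label and 206 and 199 CPM under the neuron label. With 4 libraries this likeness describes these libraries only.

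Counting could have mixed neighbours for some of these genes. In 17 of the 47, exons overlap an exon of another gene in GENCODE M21, in 16 of them on the other strand, and the strand setting of the counting is not given in the sources used here. Pairs include Mcm7 with Ap4m1, Orc6 with Vps35, Cdc45 with Ufd1 and Rfc4 with Eif4a2. Of the 30 genes with no such overlap, Pola1 among them, 22 were higher in both numbers, 8 were lower in number 2 and 15 had libraries that did not overlap. Of the 10077 genes with at least 52 summed counts, 29.3% were higher in both numbers and 51.3% were higher in number 2. For 10.8% both neuron-labelled libraries lay above both others.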

How the data were processed

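RNA was sequenced from 2 proliferating-labelled and 2 neuron-labelled iMOP libraries, made per the labels' protocols from DNase-treated, rRNA-depleted total RNA with a stranded kit. The authors deposited raw counts per gene and RPKM values, which scale counts by gene length and library total, ribosomal RNA included. HISAT2, SAMtools, featureCounts, DESeq2 and the build mm10 are named in the submitters' processing notes. Versions, settings and annotation are not given in the sources used here.

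Here 7 ribosomal RNA or rRNA-like genes were set aside and counts were scaled by TMM and tested with edgeR 4.0.16 (quasi-likelihood, filterByExpr, R 4.3.3), on group alone and with the replicate number, with Benjamini-Hochberg adjustment over 9009 genes and a threshold of 0.05. Log2 CPM used a prior count of 2. Per-length levels divided counts by gene length, recovered from counts and RPKM (equal in all libraries within 0.001 for 17709 of 17709 genes), and by non-ribosomal totals. Intervals of ratios are exact 95% binomial intervals of 2 counts. Positions and GC content are from GENCODE M21 (GC for 96.2% of tested genes), and promoters from RefSeq. The GC and length corrections subtract a spline with 5 degrees of freedom per library.

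Members and lists were chosen with earlier results of these data known. Full values were given for called genes and, in each group of genes, for those of highest mean level and of highest and lowest fold change on group alone. Genes under the count filter were named with their counts, other replication genes were named if called, and a few more were named after their values were seen. Same-numbered libraries deviated together (r = 0.74 over genes), but with 2 pairs and no label that ties them, the numbers are not taken as pairing.

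Alternatives covered scaling, filters, ribosomal RNA genes kept, DESeq2 1.42.0, limma 3.58.1 on counts (voom) and on log2(RPKM + 0.1) and log2(RPKM + 1), GC and length corrections, and leaving out each library.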

Additional observations from a re-analysis of the deposited data

How the results depend on the processing

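On group alone, 0 genes passed under any scaling, filter or tool tried, and leaving out each library gave 0 calls for all genes (0 to 0) and for the replication genes (0 to 0), with the median log2 fold change of those tested (46, or 36 without neuron-labelled library 1) between 0.95 and 1.76. With the replicate block, genes called numbered 87 in edgeR with TMM, 32 with DESeq2 size factors, 55 with library totals, 43 with no filter, 57 with ribosomal RNA genes kept, 68 in DESeq2, 160 in limma voom, 675 on log2(RPKM + 0.1), 1030 on log2(RPKM + 1), 16 with the GC correction and 183 with the length correction. Of the replication genes, 1 was called with the replicate block in the first 7 of these, 18 (beside 7.39% of all genes called higher) and 24 (beside 11.3%) on the RPKM scales, 0 with the GC correction and 2 with the length correction, the second being Dbf4 (2.20, adjusted p = 0.0253 in that fit). On log2(RPKM + 0.1) the median of the replication genes was 2.00 with and without the block, beside 0.81 over all genes. Genes higher in both numbers counted 27 to 33 over the settings, against 29 of the 36 tested.

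Pole2 was at -0.016 with upper-quartile scaling, -0.029 in DESeq2, -0.31 in voom and -0.27 with the block and GC correction, and Orc6 was at -0.058 in voom. Leaving out each library in turn gave ranges of -0.57 to 1.76 for Orc6, -0.31 to 0.48 for Pole2, -0.54 to 2.33 for Pcna, -0.029 to 1.76 for Rrm2, -0.011 to 2.55 for E2f7 and -0.048 to 1.17 for Mcm7. Of the tested replication genes, 6 of 46 were below 0 without proliferating-labelled library 1 (Orc6 at -0.51, Prim2 at -0.087, Pole2 at -0.29, Pcna, Rrm2 and E2f7), 5 of 36 without neuron-labelled library 1 (Mcm7, Pold2 at -1.57, Rfc3 at -0.33, Rpa2 at -0.093 and E2f1 at -1.39), 3 of 46 without neuron-labelled library 2 (Orc6, Pole2, and Pcna at -0.075) and 0 of 46 without proliferating-labelled library 2. The cause of these turns was not tested. In those fits the lone library of a label is assumed to vary like the other group. The 46 include genes that did not pass the filter with all 4 libraries. Leaving out a library with the block leaves 0 residual degrees of freedom and was not run. Counts under 10 in 36 of the 47 genes in proliferating-labelled library 1 limit what can be seen in number 1, and likewise 19 and 15 genes in the 2 libraries numbered 2.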
